A study of Mus musculus with 4 samples.

Results

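Retinoic acid, the hormone-like form of vitamin A, is made inside cells in a short series of steps. Retinol is taken up from its carrier in blood, oxidized to retinal, and oxidized again to retinoic acid, which binds nuclear receptors and is then broken down. White fat stores vitamin A and secretes its blood carrier, and enzymes of this route are known to act in adipocytes. The expression of 9 mouse genes of this route was followed in fat that lacks a catecholamine transporter in its adipocytes. The genes were chosen by name, as the rows of the table whose symbol is *Stra6*, *Rdh10*, *Dhrs3*, *Aldh1a1*, *Aldh1a2*, *Aldh1a3*, *Crabp1*, *Crabp2* or *Cyp26b1*, and all 9 were found among the 19030 genes listed.

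RNA was sequenced from ingWAT, the inguinal depot of white fat under the skin, of C57BL/6 mice aged 3 months and kept in the cold, at 4°C. Ctrl mice carried *Oct3* (gene symbol *Slc22a3*) flanked by loxP sites. In their cKO littermates the same floxed alleles were combined with Adiponectin-Cre, which is active in adipocytes, so that other cells of the depot keep the gene. There were 2 libraries per genotype and 4 in all, the mice were male by the Methods, and the number of mice behind a library was not stated, so the spread between replicates may be partly technical. Every mouse was cold-exposed, and no library from warm housing was analysed here.

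*Slc22a3* itself was at 17.0 and 17.7 FPKM (fragments scaled by transcript length and by the mapped fragments of the library) in Ctrl and at 9.07 and 9.50 in cKO, a log2 fold change of -0.83 (SE 0.066, limma adjusted p = 0.000439). Summed FPKM lay between 484152 and 497839 per library, and 17450000 to 18500000 reads per library were estimated from the steps between low values. The 7 genes typical of white adipocytes had the highest sum of the 13 cell types examined. This sum was 22502 and 22784 FPKM in the Ctrl libraries and 18199 and 18601 in the cKO libraries. *Fabp4*, which was not called, supplied most of it in each library (15874 and 16398 FPKM in Ctrl, 13456 and 13616 in cKO). Of the 7 genes 4 were called as lower in cKO by the threshold given below, where 13.8% of all genes tested were. Epithelial genes summed to at most 3.13 FPKM and mesothelial genes to at most 2.10 in any library, with *Krt14*, *Upk3b* and *Upk1b* at 0 or not listed. The genotypes also differed in genes of other cells. Skeletal muscle genes summed to 1940 and 2848 FPKM in the Ctrl libraries against 48.1 to 48.6 in cKO. Of these, 12 of 12 tested were called as lower in cKO, against 13.8% of all genes tested. Brown and beige adipocyte genes summed to 1516 to 1792 FPKM in Ctrl and to 4038 to 4778 in cKO, B cell genes to 253 to 285 and 388 to 440, and fibroblast progenitor genes to 1475 to 1705 and 1004 to 1018. In cKO 7 of 7 brown and beige genes and 7 of 8 B cell genes were called as higher (12% of all genes tested). Of 9 fibroblast progenitor genes 6 were called as lower (13.8% of all genes tested). The part of these cell types in the results below was not tested, and in bulk tissue fewer cells of a type and less RNA per cell cannot be told apart.

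Genotypes were compared on log2(FPKM + 1), a scale that understates the change of low genes, over the 12658 genes with a mean of at least 1 FPKM. A gene counts as called at an adjusted p under 0.05 (limma, Benjamini-Hochberg over all genes tested). Of all genes tested 25.8% were called, 12% as higher and 13.8% as lower in cKO. Of the 9 retinoid genes 6 could be tested, and 3 of these fell in cKO, namely *Aldh1a1*, *Aldh1a3* and *Dhrs3*. None rose, which may be read against the 12% above, and *Rdh10*, *Aldh1a2* and *Cyp26b1* were not called. The remaining 3, *Stra6*, *Crabp1* and *Crabp2*, were under the minimum of 1 FPKM on average. The median log2 fold change of the 6 tested genes was -0.20, against -0.01 over all genes tested.

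**Figure D1:**
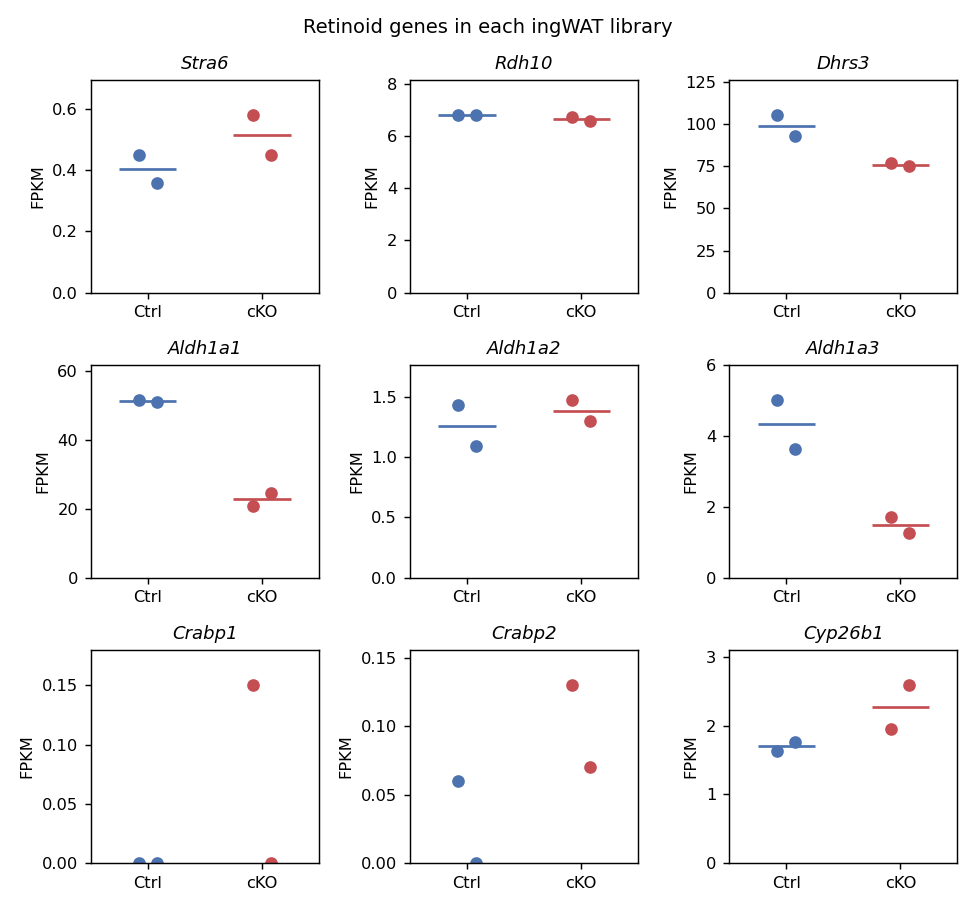
FPKM (y axis, from 0, a separate scale per gene) of the 9 retinoid genes in each Ctrl (blue) and cKO (red) library; each point is 1 library and each line a mean of 2, left out for genes with a library at 0. The points of the genotypes lie far apart for *Aldh1a1* (51.1 and 51.6 against 20.9 and 24.7) and *Aldh1a3* (3.65 and 5.01 against 1.27 and 1.71) and closely together for *Rdh10* (6.56 to 6.79).

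The genes stood at very different levels, which FPKM allows to be compared because it is scaled to transcript length. In Ctrl the order was *Dhrs3*, *Aldh1a1*, *Rdh10*, *Aldh1a3*, *Cyp26b1*, *Aldh1a2*, *Stra6*, *Crabp2* and *Crabp1*, with no overlap between neighbours except for the last pair. In cKO *Cyp26b1* stood above *Aldh1a3*, and the libraries of *Aldh1a3* overlapped those of *Aldh1a2*, as did those of *Crabp2* and *Crabp1*. *Dhrs3* and *Aldh1a1* thus held the first places in both genotypes, while *Aldh1a3* moved from the fourth place to the fifth.

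Uptake comes first. *Stra6* (gene ID 20897, chr9:58063793-58154004, mm10) encodes a cell surface receptor that takes up retinol from its blood carrier. Its level was 0.45 and 0.36 FPKM in Ctrl and 0.58 and 0.45 in cKO, which is about 17.8 to 30.8 reads per library depending on the transcript length used. The ranges touched, and so low a level was not tested.

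The step from retinol to retinal runs in both directions. *Rdh10* (gene ID 98711, chr1:16105882-16132550) encodes the retinol dehydrogenase that oxidizes retinol to retinal. Its level was 6.79 FPKM in both Ctrl libraries and 6.73 and 6.56 in the cKO libraries, from 410 to 446 estimated reads. Both cKO libraries were just below Ctrl, and the log2 fold change was -0.03 (SE 0.0721, 95% interval -0.20 to 0.14, limma adjusted p = 0.815). A fall of more than 0.20 or a rise of more than 0.14 on the log2 scale therefore lay outside the interval.

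*Dhrs3* (gene ID 20148, chr4:144892534-144928209) encodes the short-chain reductase that turns retinal back into retinol, and acts in a complex with RDH10. It was the most abundant of the 9 genes, at 105.4 and 92.8 FPKM in Ctrl and 76.9 and 74.9 in cKO, or 99.1 ± 8.92 against 75.9 ± 1.37 (SD, n = 2). Both cKO libraries were below both Ctrl libraries. *Dhrs3* fell by 0.38 on the log2 scale (SE 0.0722, 95% interval -0.55 to -0.21, limma adjusted p = 0.00955), a mean 23.4% lower. Among all genes tested 9.73% had as low a fold change. The call was lost without Ctrl replicate 1, the higher Ctrl library (log2 fold change -0.29, adjusted p = 0.0779), without cKO replicate 2 (-0.36, adjusted p = 0.0537) and with no filter on low values (-0.38, adjusted p = 0.0608).

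The ratio of these opposed enzymes was taken in each library. FPKM of *Dhrs3* over that of *Rdh10* was 15.5 and 13.7 in Ctrl and 11.4 in both cKO libraries. The RNA of the reductase was thus at least 11.4 times that of the dehydrogenase in every library, and both cKO libraries had the lower ratio. No test was run on the ratio.

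*Aldh1a1*, *Aldh1a2* and *Aldh1a3* encode the retinaldehyde dehydrogenases, which oxidize retinal to retinoic acid in a step that is not reversed. *Aldh1a1* is the form known as the main one of white fat, and it also acts on other aldehydes. *Aldh1a1* (gene ID 11668, chr19:20492583-20643463) was at 51.6 and 51.1 FPKM in Ctrl and at 20.9 and 24.7 in cKO, from 734 to 1924 estimated reads per library. The Ctrl libraries were nearly equal, and both cKO libraries lay far below them. Means were 51.3 ± 0.368 and 22.8 ± 2.71 (SD, n = 2), so that Ctrl exceeded cKO 2.25-fold. *Aldh1a1* fell by 1.14 on the log2 scale (SE 0.0825, 95% interval -1.34 to -0.95, limma adjusted p = 0.000351). Only 0.956% of the genes tested had as low a fold change, and 80 genes including *Aldh1a1* had as small a p. Leaving out any single library gave between -1.26 and -1.03, always with an adjusted p under 0.05.

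**Figure D2:**
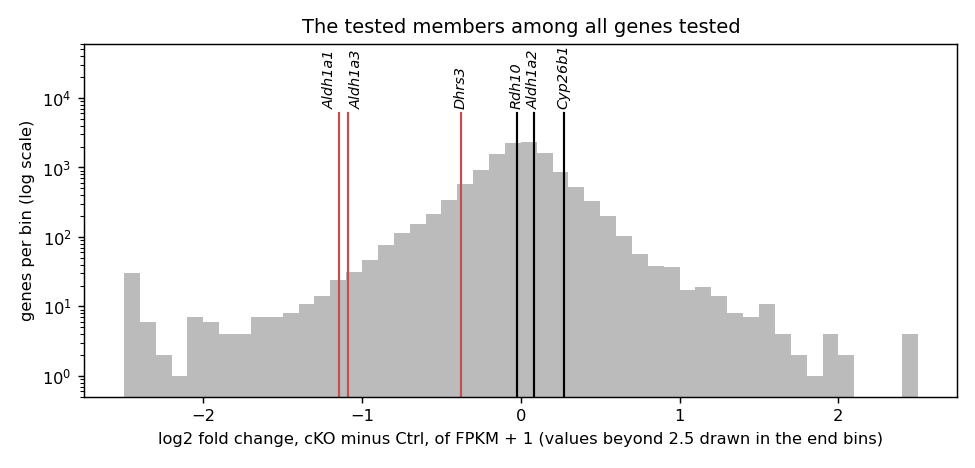
Number of genes (y axis, log scale) by log2 fold change of FPKM + 1, cKO minus Ctrl (x axis), for the 12658 genes tested, with vertical lines at the 6 retinoid genes tested (red, called; black, not called). *Aldh1a1* at -1.14 and *Aldh1a3* at -1.09 lie in the lower tail, *Dhrs3* at -0.38 on its shoulder, and *Rdh10*, *Aldh1a2* and *Cyp26b1* nearer the centre.

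Reads of *Aldh1a1* can also match *Aldh1a7*, a close rodent duplicate that lies 49.49 kb further along chromosome 19 on the other strand (chr19:20692953-20727556). Their transcripts were identical at 1839 of 2048 aligned bases (89.8%). Of the 2004 windows of 50 bases, the read length, in the *Aldh1a1* transcript, 151 (7.53%) were also present in *Aldh1a7*, and no such window of the other 8 genes was shared with any other gene. All of the longest run, 100 bases, lies in coding exons 8 and 9. It is shown with 50 bases on either side, from the GENCODE transcripts (mm10 build), because a read that falls wholly inside it cannot be assigned to either gene. Capitals mark the 18 bases at which the genes differ. The stretch of *Aldh1a1* spans chr19:20624785-20624825 in exon 7, chr19:20629054-20629156 in exon 8 and chr19:20630666-20630721 in exon 9 (plus strand), and that of *Aldh1a7* spans chr19:20714681-20714721, chr19:20709398-20709500 and chr19:20708279-20708334 in its exons 7, 8 and 9 (minus strand).
Aldh1a1: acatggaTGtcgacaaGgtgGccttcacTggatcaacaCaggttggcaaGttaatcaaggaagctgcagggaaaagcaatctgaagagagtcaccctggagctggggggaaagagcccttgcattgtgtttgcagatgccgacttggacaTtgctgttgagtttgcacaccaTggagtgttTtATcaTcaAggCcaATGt
Aldh1a7: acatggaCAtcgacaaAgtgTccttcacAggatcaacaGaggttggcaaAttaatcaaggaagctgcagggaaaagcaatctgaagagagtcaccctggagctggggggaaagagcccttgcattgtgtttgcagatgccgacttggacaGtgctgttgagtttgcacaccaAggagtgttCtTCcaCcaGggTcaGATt

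*Aldh1a7* (gene ID 26358) was more abundant than *Aldh1a1*, at 136.2 and 141.9 FPKM in Ctrl and 103.7 and 107.4 in cKO. It fell by 0.39 on the log2 scale (SE 0.0571, limma adjusted p = 0.00328), with both cKO libraries below Ctrl. The share of *Aldh1a1* in the summed FPKM of both genes was 27.5% and 26.5% in Ctrl and 16.7% and 18.7% in cKO. Where the FPKM of both genes were added into 1 value before the fit, the sums were 187.7 and 193.0 in Ctrl and 124.6 and 132.1 in cKO, a log2 fold change of -0.57 (adjusted p = 0.00112 by limma). The sum, which does not depend on how shared reads were divided between the genes, was thus called as lower too.

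RefSeq gives *Aldh1a1* 2 starts, and the sequence just before the downstream one is nearly that of *Aldh1a7*. It is shown because both genes fell, and which start was used in these libraries was not tested. The windows below come from RefSeq (GRCm38.p6) and run from 100 to 11 bases before that start, at chr19:20601868-20601957 (plus strand) for *Aldh1a1* and chr19:20727567-20727656 (minus strand) for *Aldh1a7*. Capitals mark the 6 of 90 bases that differ. In the 150 bases before these, compared position by position without gaps, 115 differ. Stretches that match at a shifted position count as differing here, so this number does not show that the likeness ends. Both genes hold ttaattcatctg in these bases, for example, but at unlike positions.
Aldh1a1 promoter: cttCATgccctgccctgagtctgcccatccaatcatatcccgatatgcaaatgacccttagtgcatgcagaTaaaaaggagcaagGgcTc
Aldh1a7 promoter: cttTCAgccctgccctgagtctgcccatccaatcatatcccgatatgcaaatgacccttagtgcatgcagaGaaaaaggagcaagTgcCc

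*Aldh1a3* (gene ID 56847, chr7:66390892-66427477), the form known for its part in eye and nasal development, was at 5.01 and 3.65 FPKM in Ctrl and at 1.71 and 1.27 in cKO. Estimated reads were 315.7 and 228.1 against 101.6 and 76.1. No cKO library reached either Ctrl library, and the Ctrl libraries differed from each other more than those of *Aldh1a1* did. The means were 4.33 ± 0.962 and 1.49 ± 0.311 (SD, n = 2), 2.91-fold higher in Ctrl, and *Aldh1a3* fell by 1.09 on the log2 scale (SE 0.152, 95% interval -1.45 to -0.73, limma adjusted p = 0.00284). As low a fold change was found for 1.06% of the genes tested. With any 1 library left out the log2 fold change stayed between -1.28 and -0.91 with an adjusted p of at most 0.0414.

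Several sums of cell type genes shared with *Aldh1a3* the order of Ctrl replicate 1 above Ctrl replicate 2 and both above cKO. Among these were skeletal muscle (2848 and 1940 FPKM in Ctrl), fibroblast progenitors (1705 and 1475 in Ctrl, 1004 and 1018 in cKO) and Schwann cells and nerve (164 and 151 in Ctrl, 73.1 and 78.9 in cKO). The endothelial sum (216 and 213 in Ctrl, 181 and 188 in cKO) had this order too. So did the low epithelial (3.13 and 3.09 against 2.55 and 2.34) and mesothelial sums (2.10 and 2.09 against 1.33 and 1.35), and *Dhrs3*. Within cKO, replicate 1 was above replicate 2 for *Aldh1a3*, *Dhrs3* and the skeletal muscle (48.6 and 48.1) and epithelial sums. It was below replicate 2 in the fibroblast progenitor, Schwann cell and nerve, endothelial and mesothelial sums. The gene nearest to *Aldh1a3* in the pattern over the 4 libraries was *Tcea3*, at 5.58 and 3.83 FPKM in Ctrl and 1.80 and 1.41 in cKO, and the next was *Mb*, which encodes the muscle oxygen carrier myoglobin, at 3.55 and 2.57 against 1.21 and 0.72. The third was *H19*, a noncoding RNA of the embryo and of muscle, at 3.19 and 1.96 against 0.74 and 0.46. *Mb* and *H19* were named after their values were seen. *Ckm*, the muscle creatine kinase, changed far more, from 333 and 210 FPKM to 0.56 and 0.35. Whether any of these cell types had a part in the difference of *Aldh1a3* was not tested. Since both Ctrl libraries were above both cKO libraries in muscle genes, genotype and muscle content cannot be told apart.

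*Aldh1a2* (gene ID 19378, chr9:71215789-71296243), the form that makes most of the retinoic acid of the early embryo, had the lowest mean of the 3 dehydrogenases in both genotypes, although in cKO its libraries overlapped those of *Aldh1a3*. Its level was 1.43 and 1.09 FPKM in Ctrl and 1.47 and 1.30 in cKO, from 44.5 to 58.9 estimated reads, and the genotypes overlapped. The log2 fold change was 0.08 (SE 0.129, 95% interval -0.22 to 0.38, limma adjusted p = 0.686).

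Added together, the 3 dehydrogenases came to 58.0 and 55.8 FPKM in Ctrl and 24.0 and 27.3 in cKO. *Aldh1a1* supplied most of this in each library, 88.9% and 91.5% in Ctrl and 86.8% and 90.6% in cKO, so its share overlapped between genotypes while the total did not. The share of *Aldh1a2* was 2.47% and 1.95% in Ctrl and 6.12% and 4.77% in cKO, higher in both cKO libraries, in which the sum was smaller. *Aldh1a3* made up 8.64% and 6.54% in Ctrl and 7.12% and 4.66% in cKO, with overlap.

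**Figure D3:**
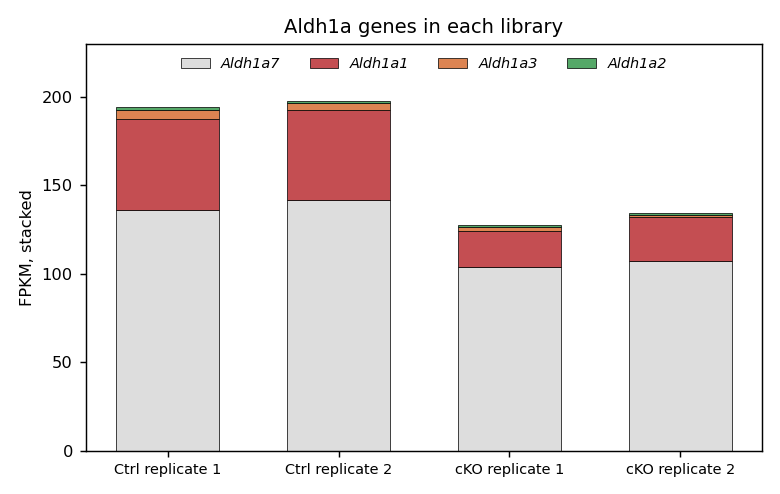
Stacked FPKM (y axis, from 0) of *Aldh1a7* (grey), *Aldh1a1* (red), *Aldh1a3* (orange) and *Aldh1a2* (green) in each of the 4 libraries (x axis). The *Aldh1a1* segment is 51.6 and 51.1 FPKM high in Ctrl and 20.9 and 24.7 in cKO, and the *Aldh1a7* segment 136.2 and 141.9 in Ctrl and 103.7 and 107.4 in cKO.

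*Crabp1* and *Crabp2* encode small proteins that bind retinoic acid in the cytoplasm, and CRABP2 is known to carry it to its nuclear receptor. Both were at the edge of detection. *Crabp1* (gene ID 12903, chr9:54764748-54773110) was listed at 0 in both Ctrl libraries and in 1 cKO library and at 0.15 FPKM in the other, which is 2 estimated reads. *Crabp2* (gene ID 12904, chr3:87948693-87953372) was listed at 0.06 and 0 FPKM in Ctrl and 0.13 and 0.07 in cKO, at most 2 estimated reads. Neither was tested and no fold change is given.

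*Cyp26b1* (gene ID 232174, chr6:84571414-84593908) encodes a cytochrome P450 that hydroxylates retinoic acid for its breakdown. It was at 1.64 and 1.77 FPKM in Ctrl and 1.96 and 2.59 in cKO, from 125 to 188 estimated reads. Both cKO libraries were above both Ctrl libraries, but the cKO libraries differed from each other more than the lower one did from Ctrl. The log2 fold change was 0.27 (SE 0.126, 95% interval -0.03 to 0.57, limma adjusted p = 0.165), and it was not called in any of the alternative fits. *Cyp26a1*, the related enzyme that retinoic acid itself induces, was at 0.03 FPKM in both Ctrl libraries and listed at 0 in both cKO libraries, too low to be tested.

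Groups that do not overlap are common in this comparison, since cKO was below Ctrl for 34.6% of all genes tested and above it for 31.9%. Of the 6 retinoid genes 4 were below (*Aldh1a1*, *Aldh1a3*, *Dhrs3*, *Rdh10*), 1 was above (*Cyp26b1*) and 1 overlapped (*Aldh1a2*).

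The pattern over the 4 libraries was compared with that of every other gene tested, as the distance between values of log2(FPKM + 1) after each gene's own mean was taken away. *Aldh1a1* was nearest to *Phlda1*, a gene for a pleckstrin homology-like domain protein, at 18.6 and 17.6 FPKM in Ctrl and 7.0 and 8.74 in cKO (distance 0.0624). Only 2 genes lay within 0.1 of *Aldh1a1*, and likewise of *Aldh1a3*, whose distance to *Tcea3* was 0.0658. The patterns of the others were common. *Dhrs3* was nearest to *Armcx3* (0.0164, 191 genes within 0.1), *Rdh10* to *Pde6d* (0.00924, 1683 genes), *Aldh1a2* to *Dusp4* (0.0228, 210 genes) and *Cyp26b1* to *Stmn2* (0.0308, 129 genes). With 4 values a gene, such nearness is a description only.

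Around the 9 genes stand carriers, storage enzymes, further oxidoreductases and receptors. A written list held 67 of these, of which 60 were in the table and 44 could be tested. Among the 44, 5 rose in cKO, 7 fell and 32 were not called. The median of these 44 was -0.10 on the log2 scale. In percent, 11.4 rose against 12 of all genes tested and 15.9 fell against 13.8.

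In transport, *Rbp4*, which encodes the blood carrier of retinol and is secreted by the liver and by fat, was at 438.0 and 420.6 FPKM in Ctrl and 201.8 and 219.4 in cKO. Both cKO libraries were below both Ctrl libraries, and *Rbp4* fell by 1.03 on the log2 scale (SE 0.0676, limma adjusted p = 0.000258), 2.04-fold higher in Ctrl. *Lrat*, which makes retinyl esters for storage, was at 0.08 to 0.18 FPKM in all libraries and not tested.

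Release from esters showed a small change at most. *Lipe*, which encodes hormone-sensitive lipase, a retinyl ester hydrolase of fat, was at 510 and 492 FPKM in Ctrl and 511 and 479 in cKO, with overlap (log2 fold change -0.02, limma adjusted p = 0.868). *Ces1d*, for a carboxylesterase that also cleaves retinyl esters, fell by 0.23 on the log2 scale (limma adjusted p = 0.0408), and this call was lost whichever library was left out, with the replicate block (adjusted p = 0.129), with median-of-ratios scaling (0.0660), with no variance trend (0.0535) and with no filter (0.0928). Of the genes for the uptake and cleavage of carotenoids 2 of 3 tested fell (13.8% of all genes tested), *Scarb1* by 0.42 and *Cd36* by 0.36 on the log2 scale (limma adjusted p = 0.00514 and 0.0117). Both encode scavenger receptors that also take up other lipids.

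Among 13 tested oxidoreductases outside the 9 genes, 4 rose and none fell, where 12% of all genes tested rose and 13.8% fell. *Dhrs9*, for a dehydrogenase able to oxidize retinol, was at 0.84 and 0.85 FPKM in Ctrl and at 3.47 and 2.43 in cKO. Its Ctrl values were under the minimum of 1 FPKM, so it passed the filter only through its cKO values. Both cKO libraries stood well above the nearly equal Ctrl libraries (log2 fold change 1.09, SE 0.146, limma adjusted p = 0.00254, and 1.67 with a pseudocount of 0.1). *Retsat*, for the saturase that converts retinol to dihydroretinol, rose from 84.7 and 94.0 FPKM to 122.0 and 111.0 (log2 fold change 0.38, limma adjusted p = 0.0109). *Rdh13* and *Dhrs4* rose by 0.42 and 0.30 on the log2 scale (limma adjusted p = 0.0334 and 0.0165). The call of *Rdh13* was lost without Ctrl replicate 1 (log2 fold change 0.25), without cKO replicate 1 (0.37) and without cKO replicate 2 (0.46), and also with no variance trend (adjusted p = 0.0557). With no filter on low values the calls of *Rdh13*, *Cd36*, *Retsat* and *Dhrs4* were lost (adjusted p = 0.138, 0.0609, 0.0675 and 0.0671).

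The nuclear receptors moved in different directions. *Rxra*, for the retinoid X receptor shared by many nuclear receptors, fell from 42.5 and 39.8 FPKM in Ctrl to 31.4 and 32.7 in cKO (log2 fold change -0.35, limma adjusted p = 0.00688). *Rxrb* rose from 24.2 and 24.1 to 30.1 and 29.2 FPKM (0.28, limma adjusted p = 0.0114), and *Rxrg*, at 18.1 and 16.8 against 15.3 and 15.9 FPKM, was not called (-0.15, limma adjusted p = 0.135). In neither called receptor did the genotypes overlap, but cKO was below Ctrl for 34.6% of all genes tested and above it for 31.9%.

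None of the retinoic acid receptor genes was called. *Rarb*, which retinoic acid is known to induce, was at 1.57 and 2.04 FPKM in Ctrl and 2.52 and 2.70 in cKO, higher in both cKO libraries (log2 fold change 0.37, limma adjusted p = 0.0607). *Rara* was at 10.2 and 9.74 against 11.3 and 11.8 FPKM (0.19, limma adjusted p = 0.0776) and *Rarg* at 17.0 and 14.7 against 14.7 and 16.0, with overlap (-0.04, limma adjusted p = 0.761). *Rarb* passed the threshold under 3 alternatives (quantile normalization, replicate block, no variance trend, adjusted p = 0.0339, 0.0481 and 0.0473) and *Rara* under median-of-ratios scaling and quantile normalization (0.0478 and 0.0444). Of 6 coregulator genes tested none was called, where 25.8% of all genes tested were. Their log2 fold changes lay between -0.13 and 0.16.

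Of 5 tested genes listed for a response to retinoic acid, 1 was called, where 25.8% of all genes tested were called. *Rarres2*, for the adipokine chemerin, was at 308 and 269 FPKM in Ctrl and 183 and 192 in cKO. Both cKO libraries were below Ctrl, and *Rarres2* fell by 0.62 on the log2 scale (SE 0.0784, limma adjusted p = 0.00205). The others, *Rai2*, *Tgm2*, *Cd38* and *Rai14*, lay between -0.28 and -0.07.

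Leaving out 1 library at a time, 4 of the 12 calls in this wider list held in every fit (*Rbp4*, *Rarres2*, *Aldh1a7*, *Dhrs9*) and 8 were lost in at least 1. The list kept 4 calls without Ctrl replicate 1, 9 without Ctrl replicate 2, 7 without cKO replicate 1 and 11 without cKO replicate 2. The highest adjusted p in these fits was 0.0681 for *Scarb1*, 0.0756 for *Rxra*, 0.0880 for *Rxrb*, 0.109 for *Retsat*, 0.128 for *Cd36*, 0.139 for *Dhrs4*, 0.190 for *Rdh13* and 0.245 for *Ces1d* (limma). Over all genes tested the calls numbered 877, 1531, 2165 and 2429 in the same order, against 3269 with all 4 libraries.

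**Figure D4:**
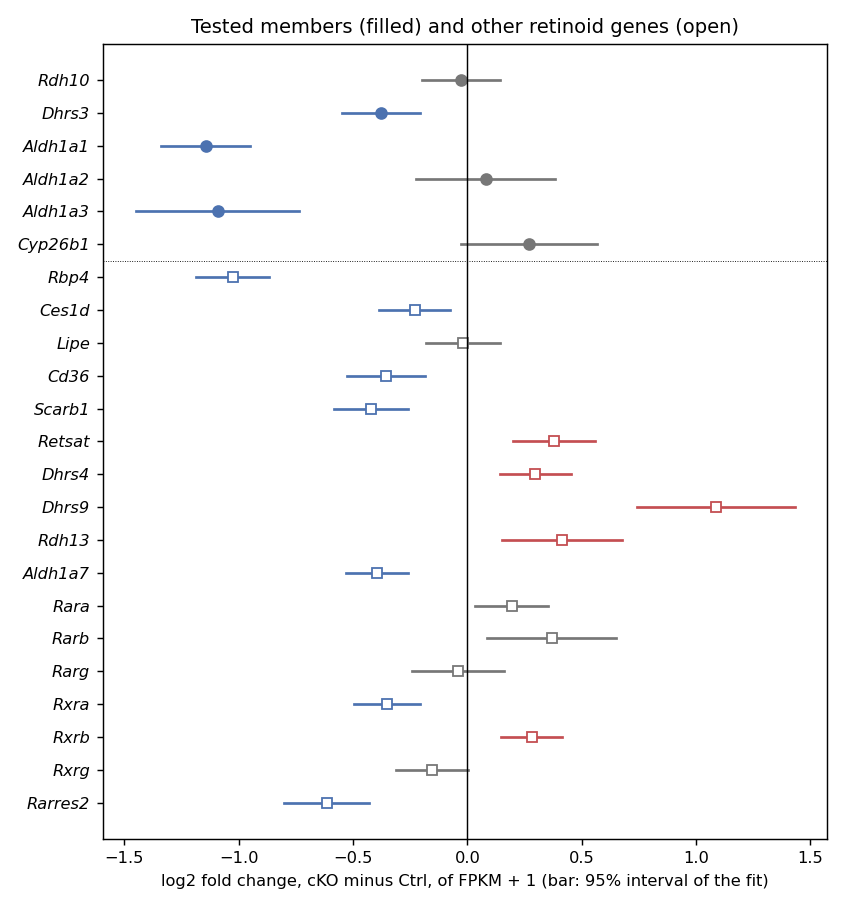
Log2 fold change of FPKM + 1, cKO minus Ctrl (x axis), with 95% intervals of the limma fit, for the 6 retinoid genes tested (filled circles, above the dotted line) and 17 further retinoid genes (open squares); blue, called lower; red, called higher; grey, not called. *Aldh1a1*, *Aldh1a3* and *Rbp4* lie at or below -1.03 and *Dhrs9* at 1.09, with the other genes between -0.62 and 0.42.

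Retinoic acid receptors bind repeats of a motif of a few bases, and promoters were searched for it. RefSeq promoter windows (GRCm38.p6, from 250 bases before to 50 after each start) were found for 6 of the 9 genes, 12 windows in all, and none for *Aldh1a3*, *Rdh10* and *Crabp2*. Direct repeats of AGGTCA or AGTTCA with 5, 2 or 1 bases between were sought on both strands, as was AGGTCA alone, which a direct repeat may contain. None of the 12 windows held a match. Other spellings of the motif, such as GGTTCA, were not sought, so repeats with them are missed. The window of *Rarb*, for example, holds GGTTCA and AGTTCA with 5 bases between and was not counted as a match. Over all 32851 windows the shares with a match were 0.0396%, 0.0396%, 0.0822% and 16.3%. For comparison, the window of *Cyp26a1* held a repeat with 5 bases between, on the minus strand. This repeat reaches up to 32 bases before the start. It is shown on that strand with 10 bases on either side and the repeated motif in capitals.
Cyp26a1 chr19:37697766-37697802: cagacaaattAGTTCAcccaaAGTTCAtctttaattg
A match of letters is not a bound site, and its absence from these windows says nothing of the receptor.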

How the data were processed

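Polyadenylated RNA of ingWAT was read by the authors as single-end sequences of 50 bases. The deposited values are FPKM per gene and library, given to hundredths, with no further scaling between libraries stated. HISAT2 2.0.4, RSEM 1.2.12 and mm10 are named in the submitters' processing notes. Of the 19030 gene IDs, 18977 matched a RefSeq table. Libraries were grouped by their labels, and all per-library columns were used.

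The table holds no read counts. Reads per library were estimated by a grid fit to the steps between FPKM values of RNAs no longer than 400 bases with up to 6 reads, of which 84.4% to 89.9% came out whole within 0.1. Simulated libraries served as a test. Whole reads were not recovered for genes in general, so no count test was run.

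The 12658 genes that averaged 1 FPKM or more were fitted with limma 3.58.1 (R 4.3.3) on the log2 scale after adding 1, by eBayes with a trend, with Benjamini-Hochberg adjustment, a threshold of 0.05 and 95% intervals of the moderated fit. The fit was tested on simulated data. Exact permutation tests were not used, since 2 libraries against 2 cannot pass the threshold. Replicate numbers were not treated as pairs.

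The 9 genes, the wider retinoid list and the marker lists were chosen with earlier results of these data known. Named are all 9 genes, *Slc22a3*, every called gene of the wider list, its receptors, *Rbp4*, *Lrat*, *Lipe*, *Retsat*, *Aldh1a7* and *Cyp26a1*, and the gene nearest in pattern to each tested gene. A gene that this rule names is not reported here. Coordinates are from RefSeq (GRCm38.p6) and transcripts from GENCODE on the same build. Alternatives were quantile normalization, median-of-ratios scaling, a minimum mean of 5 FPKM, no minimum, a replicate block, no variance trend, a pseudocount of 0.1, an added log2 fold change of at least 1 and leaving out each library. Summing *Aldh1a1* with *Aldh1a7* was chosen after the data were seen. Other steps ran in Python 3.11.15, with numpy 2.4.6, pandas 2.3.3 and, for plots, matplotlib 3.10.9.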

Additional observations from a re-analysis of the deposited data

How the results depend on the processing

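*Aldh1a1* and *Aldh1a3* were called as lower in every alternative fit in which they were tested. *Aldh1a1* lay between -1.26 and -1.03 on the log2 scale, except for its sum with *Aldh1a7* (-0.57), and *Aldh1a3* between -1.48 (pseudocount of 0.1) and -0.91 (without Ctrl replicate 1). *Dhrs3* kept its direction. The 9 genes had 2 or 3 calls in each fit. With no filter on low values 1762 genes were called in all and 7 of the wider retinoid list, and with an added log2 fold change of at least 1, 233 and 2. Leaving out 1 library gave 877 to 2429 calls in all, 2 to 3 among the 9 genes and 4 to 11 in the wider list. For genes not called with all libraries, the sign turned for *Lipe* (-0.065 to 0.028 over the fits without 1 library), *Rarg* (-0.14 to 0.058), *Aldh1a2* (-0.028 to 0.19) and, with quantile normalization, *Rdh10* (0.0079). *Lipe* was called under quantile normalization alone (-0.24, limma adjusted p = 0.0285). The cause was not tested.

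The replicate numbers are shared by the genotypes, but differences between replicates 1 and 2 in Ctrl and in cKO correlated by only 0.0148 over 12658 genes, so the numbers were not taken as pairs. With a replicate block 3383 genes were called, with 3 of the 9 genes and 14 of the wider list.

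With 2 libraries per genotype, and no count of mice behind them, the spread rests on 2 residual degrees of freedom per gene beside what limma borrows from other genes. Fewer than about 60 estimated reads stood behind each value of *Aldh1a2*, *Stra6*, *Crabp1* and *Crabp2*.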
